A study of Erythranthe pardalis x Erythranthe guttata and Erythranthe pardalis with 20 samples.

Results

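The comparison described here sets whole hybrid seeds at 4 days after pollination (DAP) against whole hybrid seeds at 2 DAP. Its members are the 3 libraries labelled 4 DAP and the 4 libraries labelled 2 DAP, 7 of the 20 RNA-seq libraries of a seed time course that also holds unfertilized ovules (0 DAP) and seeds at 6 and 8 DAP. Both groups came from the same cross, with SEC39, an inbred line of the selfing species Mimulus pardalis, as the mother and CSS4, an inbred line of Mimulus guttatus, as the pollen parent, grown under the same chamber conditions. Each library was made from a pool of seeds removed by hand from cut fruits, so that seed coat, endosperm, embryo and possibly some placenta were sampled together, and a lower value can mean fewer cells of a type or less RNA per cell, which cannot be told apart. The study's methods describe 1 pool per maternal plant, whereas the deposited record describes fruits pooled from different plants. The p-values given below therefore measure the spread between such pools, which the main fit estimates over pools of all ages together. That spread was wider at 2 DAP than at 4, 6 or 8 DAP, and narrower than in ovules, as given below.

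In flowering plants, fertilization of the egg starts the embryo and fertilization of the central cell starts the endosperm, the tissue that nourishes the embryo, while the ovule's own coverings become the seed coat. In Mimulus the endosperm forms cell walls from its first division, unlike the endosperm of Arabidopsis, which first grows as a syncytium. The days between 2 and 4 DAP fall in the early part of this process, in which the young embryo divides and the endosperm proliferates, before the seed fills and matures. Gene functions named below are those of Arabidopsis homologues, as the supplementary tables pair them with Mimulus genes, and genes without such a name are given by identifier alone.

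Total counts ran from 13268485 to 16529554 in the 4 DAP libraries and from 12134820 to 16121733 in the 2 DAP libraries, over 28140 annotated genes, of which 3679 had no count in any of these 7 libraries. Values below are normalised CPM, read counts relative to a library's total after scaling by the TMM method of edgeR. Where no read was counted, as many as 3 may have been missed by chance. That limit is 0.155 to 0.199 normalised CPM in the 4 DAP libraries and 0.156 to 0.288 in the 2 DAP libraries, and it covers counting error only. The study's table numbers its libraries from 1 to 20. All 4 DAP libraries and 2 DAP replicate 1 carry numbers up to 14 (4, 7 and 12 for 4 DAP and 11 for 2 DAP), whereas 2 DAP replicates 2, 3 and 4 carry 16, 18 and 20, so that age and library number cannot be told apart for those 3 libraries. What the numbers stand for is not given in the sources used here.

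The 4 DAP libraries were alike and the 2 DAP libraries were not. Over 20242 genes, Spearman's rho between 4 DAP libraries was 0.986 to 0.987, whereas between 2 DAP libraries it was 0.858 to 0.957. Replicate 1 of 2 DAP was closer to the 4 DAP libraries (0.950 to 0.961) than to the other 2 DAP libraries (0.858 to 0.917), and replicate 3 of 2 DAP was about as close to 6 DAP seeds (0.885 to 0.902) as to 4 DAP seeds (0.894 to 0.913). These correlations run across genes, which are not independent replicates, and they are given as a description. Replicate 1 is also the single 2 DAP library numbered with the 4 DAP libraries. The part that library number, or the stage of the pooled seeds, may have in these patterns was not tested.

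**Figure D1:**
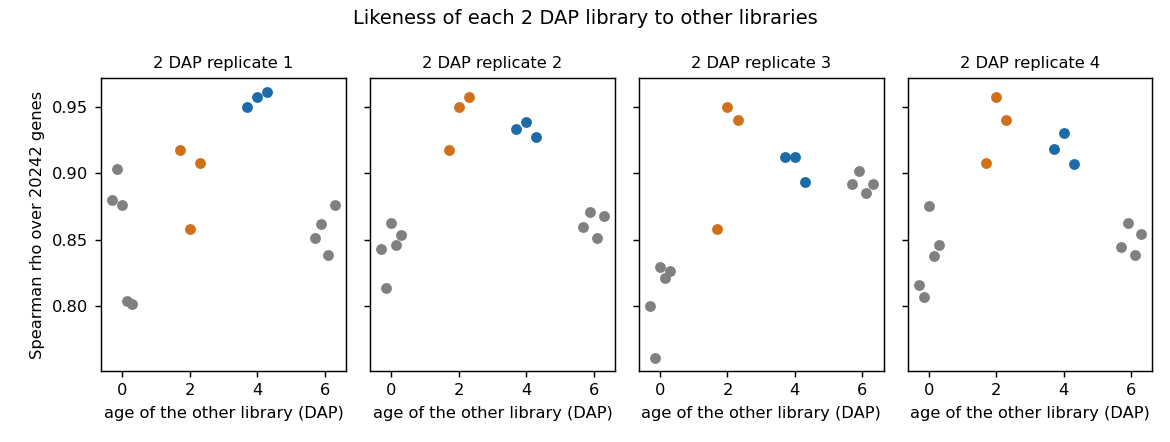
Spearman's rho over 20242 genes between each 2 DAP library (one panel each) and the libraries of 0, 2, 4 and 6 DAP, one point per library. Points for 2 DAP replicate 1 are highest against 4 DAP (0.950 to 0.961), whereas those for replicates 2, 3 and 4 reach 0.957, 0.950 and 0.957 against other 2 DAP libraries.

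Few genes were called different between the ages, and most of those were lower at 4 DAP. In edgeR's quasi-likelihood test over all 20 libraries, 40 of 20242 genes tested (0.198%) had an adjusted p under 0.01, with Benjamini-Hochberg adjustment. Of these, 4 (0.0198%) rose and 36 (0.178%) fell at 4 DAP. In all 40 genes every 4 DAP library lay outside the range of the 2 DAP libraries, replicate 1 included. At an unadjusted p under 0.05 there were 1223 genes higher (6.04%) and 3262 lower (16.1%) at 4 DAP, against 2275 higher and 1634 lower when libraries were scaled by total count with no TMM factors, a scaling that moves the median log2 fold change of all genes by 0.31.

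The number of calls depended on single libraries. Without 2 DAP replicate 1 there were 1249 calls, without 2 DAP replicate 2 there were 9, and without 4 DAP replicate 3 there was 1. There were 0 calls without 2 DAP replicate 4, 4 DAP replicate 1 or 4 DAP replicate 2, with 3435, 3198 and 3597 genes at an unadjusted p under 0.05 in edgeR. Fitted on the 7 libraries alone, the test called 0 genes and left 3893 at that p. With a term for library numbers 15 to 20, outside of which replicate 1 is the only 2 DAP library, 1 gene was called, and with a block for the maternal plants that the study's table gives, 372 were. DESeq2 called 795 genes, 700 of them lower at 4 DAP, limma-voom 443, 391 of them lower, and edgeR's likelihood ratio test 588. Counts of list members that DESeq2 or limma-voom called, given below, are to be read against these numbers out of 20242 genes. The 40 genes nonetheless had the same sign and an unadjusted p under 0.05 in each of the 19 alternatives planned for the fit in which they passed its filter. Only Migut.M01588 failed the filter anywhere, in 2 of the 19.

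The 4 genes that rose at 4 DAP included a floral regulator and a predicted sugar transferase. Migut.J00778, whose homologue belongs to the O-fucosyltransferase family, had 78.1, 68.8 and 83.3 normalised CPM in the 4 DAP libraries, against 18.9, 10.4, 23.4 and 12.1 in the 2 DAP libraries (log2 fold change 2.24 ± 0.36, SE, edgeR adjusted p = 0.00687). Migut.J01710, with no homologue name, had 159, 150.3 and 181 normalised CPM in the 4 DAP libraries, against 38.2, 26.8, 56.5 and 27.3 in the 2 DAP libraries (log2 fold change 2.13 ± 0.38, edgeR adjusted p = 0.00942). In both genes the 4 DAP values lay far above the highest 2 DAP value, that of replicate 3. The homologue of AP3, Migut.C00785, a MADS-box gene that in Arabidopsis specifies petals and stamens, had 29.2, 20.5 and 30.5 normalised CPM in the 4 DAP libraries, against 10.5, 7.09, 10.5 and 6.23 in the 2 DAP libraries (log2 fold change 1.64 ± 0.27, edgeR adjusted p = 0.00741). Its mean at 6 DAP was 25.8, close to the 4 DAP values, and its mean in ovules was 9.22, close to the 2 DAP values. The fourth gene, Migut.I00948, without a homologue name, had 21.2, 16.9 and 20.1 normalised CPM in the 4 DAP libraries, against 8.66, 4.79, 5.46 and 5.32 in the 2 DAP libraries (log2 fold change 1.67 ± 0.27, edgeR adjusted p = 0.00581), with 12.6 in ovules. Means at 6 DAP were 205 for Migut.J00778 and 191 for Migut.J01710, and those in ovules were 1.89 and 0.446.

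Genes with the widest gap between the groups were ranked, among those averaging at least 3 in log2 CPM over the 7 libraries, by the distance between the lowest library of one age and the highest of the other. Upward, 8 such genes did not reach the threshold of the test. Migut.I00410, of glycosyltransferase family 61, whose members add sugars to xylan and other wall polymers, was at 387, 446 and 431 at 4 DAP and 112, 57.3, 88.5 and 83.4 at 2 DAP (log2 fold change 2.30 ± 0.44, edgeR adjusted p = 0.0124), and at 1.15 on average in ovules. Migut.M00281, related to the wax ester synthase WSD1, was at 93.2, 86.7 and 96.3 at 4 DAP and 29, 12.7, 23.1 and 12.5 at 2 DAP (edgeR adjusted p = 0.0148). Both genes separated the ages in every library, and replicate 1 was the highest 2 DAP library in each. The other 6 genes, Migut.N00338, Migut.E00679, Migut.J00665, Migut.J00494, Migut.O00218 and Migut.J01474, have no homologue name. Of these, Migut.N00338 had 46.2, 56.4 and 40.6 normalised CPM in the 4 DAP libraries, against 7.78, 8.53, 2.69 and 6.14 in the 2 DAP libraries (log2 fold change 2.92 ± 0.62, edgeR adjusted p = 0.0178). Migut.E00679 had 28.6, 25.4 and 30.7 normalised CPM in the 4 DAP libraries, against 6.17, 4.89, 6.07 and 1.89 in the 2 DAP libraries (log2 fold change 2.56 ± 0.55, adjusted p = 0.018). Levels of these 2 genes at 6 DAP averaged 9.94 and 8.79, below the 4 DAP values, so that 4 DAP was their highest age.

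**Figure D2:**
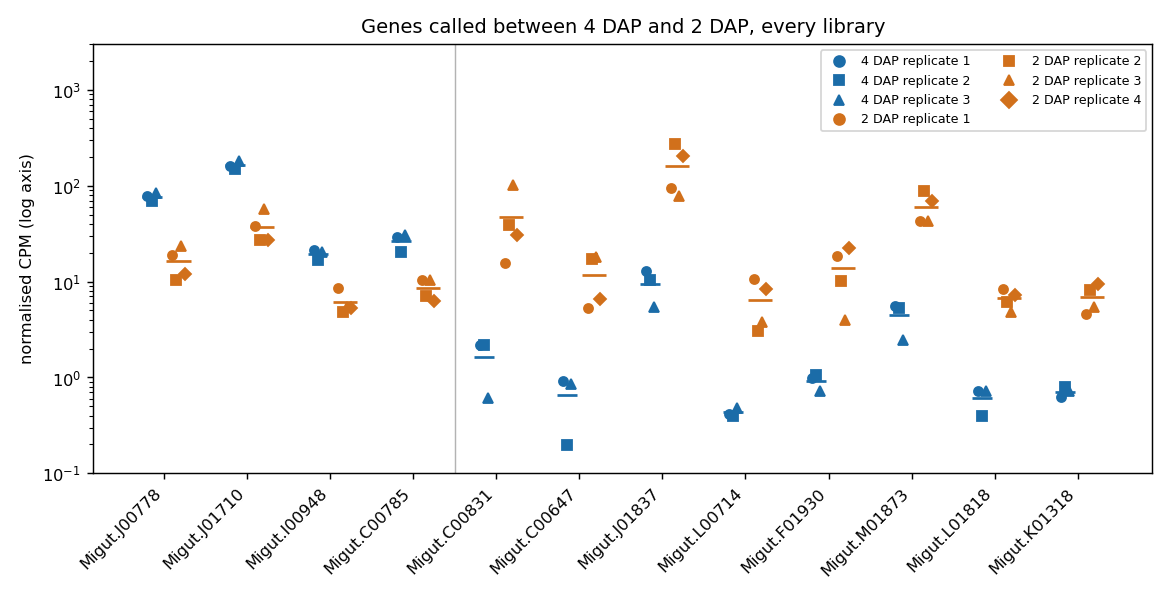
Normalised CPM (log axis) of 12 of the 40 called genes in every 4 DAP library (blue) and 2 DAP library (orange), with the symbol giving the replicate and the line the mean. All 4 genes left of the divider lie higher at 4 DAP and all 8 right of it lie lower, with no overlap between the ages in any of them.

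Among the genes that fell, several averaged more in ovules than at 2 DAP and were under 1 normalised CPM in every 4 DAP library. Migut.F00332, a homologue of beta-1,3-glucanase BG1, an enzyme that cleaves the wall polymer callose, had 0.155, 0 and 0.0606 normalised CPM in the 4 DAP libraries, against 6.48, 0.383, 3.12 and 1.89 in the 2 DAP libraries (log2 fold change -5.14 ± 0.88, edgeR adjusted p = 0.00818). Its ovule mean was 101, and none of its 4 DAP values exceeded the 3-count limit. Migut.M01588 had no count in any 4 DAP library and 0.519, 1.34, 3.47 and 0.993 normalised CPM in the 2 DAP libraries, so that it was at least 8.86-fold lower at 4 DAP, taking 3 counts per 4 DAP library as the limit (edgeR adjusted p = 0.00818). Migut.L01818, of the Ovate family of transcriptional repressors, was at 0.723, 0.397 and 0.727 at 4 DAP and 8.4, 6.13, 4.85 and 7.31 at 2 DAP (edgeR adjusted p = 0.00978). Migut.K01318, a predicted calcium-binding EF-hand protein, was at 0.619, 0.795 and 0.727 at 4 DAP and 4.62, 8.24, 5.37 and 9.47 at 2 DAP (edgeR adjusted p = 0.00709). The 4 DAP values of both were under 1 in every library. Migut.L00714, without a homologue name, was at 0.413, 0.397 and 0.485 at 4 DAP and 10.7, 3.07, 3.81 and 8.3 at 2 DAP (edgeR adjusted p = 0.00868). Migut.F01930, likewise unnamed, was at 0.981, 1.06 and 0.727 at 4 DAP and 18.4, 10.1, 3.99 and 22.4 at 2 DAP (edgeR adjusted p = 0.00275), and its ovule mean of 12 lay within its 2 DAP range.

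Other called genes were low at 4 DAP and high again later. Migut.M01873, a homologue of ARR24, a response regulator of the cytokinin phosphorelay, had 5.57, 5.3 and 2.48 normalised CPM in the 4 DAP libraries, against 43.1, 87.7, 42.3 and 69.1 in the 2 DAP libraries (log2 fold change -3.76 ± 0.67, edgeR adjusted p = 0.00978). It averaged 0.392 in ovules, 203 at 6 DAP and 249.5 at 8 DAP. Migut.C00831, of the gibberellin-regulated family of small secreted peptides, had 2.17, 2.19 and 0.606 normalised CPM in the 4 DAP libraries, against 15.6, 39, 102 and 30.8 in the 2 DAP libraries (log2 fold change -4.81 ± 0.72, edgeR adjusted p = 0.0043), with means of 269 in ovules and 262 at 6 DAP. In Migut.M01873 replicate 1 lay among the other 2 DAP libraries, and in Migut.C00831 it was the lowest of them. Migut.G01287, a homologue of the lipid transfer protein LTP4, had 10.9, 8.74 and 7.81 normalised CPM in the 4 DAP libraries, against 23, 70.0, 88.2 and 71.9 in the 2 DAP libraries (log2 fold change -2.78 ± 0.48, edgeR adjusted p = 0.00818) and a 6 DAP mean of 102. Here replicate 1 was the lowest 2 DAP library, between the other 3 and 4 DAP. By contrast, Migut.J01837 and Migut.N01293 remained low at 6 DAP, with means of 7.08 and 3.84. Migut.J01837 had 12.9, 10.3 and 5.45 normalised CPM in the 4 DAP libraries, against 93.4, 269, 77.9 and 203 in the 2 DAP libraries (log2 fold change -4.07 ± 0.70, edgeR adjusted p = 0.00818). Migut.N01293, a SAUR-like auxin-responsive gene, was at 3.1, 2.98 and 3.63 at 4 DAP and 19.5, 25.2, 9.62 and 28.3 at 2 DAP (edgeR adjusted p = 0.00741).

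Of the genes with the widest gap downward, 3 are called and described above (Migut.M01873, Migut.C00831 and Migut.J01837), and the other 7 did not reach the threshold, among them Migut.F01928 of the S1 family described below. Migut.D00734, a homologue of DIR1, a lipid transfer protein of systemic immunity, was at 10.2, 9.74 and 9.21 at 4 DAP and 30.8, 87.5, 36.8 and 83.3 at 2 DAP (log2 fold change -2.61 ± 0.49, edgeR adjusted p = 0.0102). The related Migut.D00731 was at 9.24, 8.01 and 7.75 at 4 DAP and 26.3, 59.1, 29.1 and 67 at 2 DAP. Migut.D00735, a glyoxalase family homologue, was at 14.8, 16.5 and 12.5 at 4 DAP and 60.4, 159, 64 and 71.9 at 2 DAP (log2 fold change -2.60 ± 0.48, edgeR adjusted p = 0.0102). Their ovule means, 512 for Migut.D00734 and 402 for Migut.D00735, were higher than any 2 DAP value. Migut.D02454, a homologue of the purine permease PUP4, was at 2.79, 2.45 and 2.97 at 4 DAP and 24.7, 29.1, 9.28 and 22.2 at 2 DAP, and in ovules it averaged only 2.44. The pectin lyase-like gene Migut.I01004 was at 1.7, 0.729 and 5.27 at 4 DAP and 24.6, 64.7, 22.1 and 41.9 at 2 DAP, with a log2 fold change of -3.89 ± 1.11 (SE, edgeR adjusted p = 0.0535). Migut.L01143, without a homologue name, was at 17.1, 17.8 and 13.3 at 4 DAP and 73.7, 144, 136 and 174 at 2 DAP. Migut.L01094, also unnamed, was at 4.54, 5.3 and 4.24 at 4 DAP and 21.1, 29, 22.1 and 41.2 at 2 DAP.

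Across all genes, every 4 DAP library lay above every 2 DAP library in 1830 genes (9.04%) and below every one in 1874 (9.26%). With total-count CPM the split was 2408 against 1327 genes (11.9% and 6.56%), and without 2 DAP replicate 1 it was 4712 against 4848. Gaps of at least 1 on the log2 scale were rarer and mostly downward, with 50 genes above and 139 below. The gene lists described next are read against these shares.

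The S1 self-incompatibility family, small secreted proteins related to the stigma determinant of poppy, held many genes that were lower at 4 DAP. Of 71 members tested, 25 (35.2%, against 9.26% of all genes) lay below every 2 DAP library at 4 DAP and 1 lay above, and 37 had an unadjusted p under 0.05 in edgeR, all lower at 4 DAP, beside 16.1% of all genes. The median log2 fold change of the list was -1.39, against -0.03 over all genes, and with a term for library numbers 15 to 20 it was -1.02. Summed over the family, levels were 513, 533 and 668 normalised CPM in the 4 DAP libraries, against 905, 1397, 1109 and 1489.6 in the 2 DAP libraries. The sums did not overlap, and replicate 1 was the lowest of the 2 DAP libraries. The 2 members called were Migut.C00647, at 0.929, 0.199 and 0.848 at 4 DAP and 5.24, 17.1, 18.1 and 6.59 at 2 DAP (log2 fold change -4.11 ± 0.58, edgeR adjusted p = 0.00275), and Migut.F01740. Migut.F01740 was picked after its values were seen and was at 2.17, 1.52 and 2.18 at 4 DAP and 8.3, 5.37, 14.2 and 11.3 at 2 DAP (log2 fold change -2.31 ± 0.39, adjusted p = 0.00741). Migut.F01928 was at 4.9, 3.51 and 2.91 at 4 DAP and 32.8, 79.4, 17.6 and 49.9 at 2 DAP and was not called (edgeR adjusted p = 0.0546). Nor was Migut.H02433, at 0.465, 0.397 and 0.909 at 4 DAP and 4.46, 10.4, 4.25 and 4.51 at 2 DAP (edgeR adjusted p = 0.0457). In all 4 of these genes the ages separated.

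Genes of chromatin assembly and DNA replication tended to be lower at 4 DAP, few of them past the threshold. Of 12 core histone genes, whose proteins package newly made DNA, 1 was called, 12 had an unadjusted p under 0.05 in edgeR and 11 separated the ages, each time with 4 DAP lower. With the other tools, DESeq2 called 9 of the 12 and limma-voom 8, beside 700 and 391 called lower among all 20242 genes. The gene called by edgeR, Migut.D02154, had 15.6, 17.9 and 11.4 normalised CPM in the 4 DAP libraries, against 47.5, 99.7, 80.4 and 111 in the 2 DAP libraries (log2 fold change -2.50 ± 0.40, edgeR adjusted p = 0.00581). Summed histone levels were 1142, 1213 and 1064 normalised CPM in the 4 DAP libraries, against 1781, 4297, 3962 and 4129 in the 2 DAP libraries, so that replicate 1 lay nearer to 4 DAP than the others did. Migut.D00565, Migut.D00242, a homologue of the H2AX gene HTA5, and Migut.J00346 also separated, the last at 151, 184 and 136 at 4 DAP and 289.6, 758, 553 and 745 at 2 DAP. Of 26 tested genes of the cell cycle and DNA replication list, 10 separated with 4 DAP lower and 0 with 4 DAP higher, none was called by edgeR and 3 were called by DESeq2. With total-count CPM 1 separated in each direction. Cyclin A1 homologue Migut.C01054 was at 5.52, 5.23 and 3.51 at 4 DAP and 11.2, 17.3, 16.2 and 17.5 at 2 DAP (edgeR adjusted p = 0.0133). The replication factor SLD5 homologue Migut.G00073 was at 6.56, 10.5 and 8.72 at 4 DAP and 17.1, 19.9, 13.4 and 30.3 at 2 DAP (edgeR adjusted p = 0.0233). The homologue of CENH3, the histone that marks centromeres (Migut.N01557), was at 1.65, 1.72 and 1.57 at 4 DAP and 3.27, 8.15, 1.99 and 6.14 at 2 DAP. The homologue of MCM7, a subunit of the replicative helicase (Migut.D00627), was at 6.56, 6.29 and 4.54 at 4 DAP and 10.2, 10.6, 17.5 and 8.12 at 2 DAP. The ages separated in these 4 genes.

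Cytosolic ribosomal protein genes were lower at 4 DAP than in 2 DAP replicates 2 to 4, and on the TMM scale little different from replicate 1. Of 17 members tested, 16 had an unadjusted p under 0.05 in edgeR, all lower at 4 DAP, 10 separated the ages with 4 DAP lower (16 with total-count CPM), and none was called, against 10 by DESeq2. Their summed level was 7742, 8808 and 6831 normalised CPM in the 4 DAP libraries, against 9365, 23215, 24535 and 24929 in the 2 DAP libraries. Replicate 1 was slightly above the highest 4 DAP library, and the other 3 were far above it. How near replicate 1 lies to 4 DAP moves with the scaling. Its TMM factor, by which normalised CPM is divided, was 1.33, against 0.860, 0.716 and 0.820 in replicates 2 to 4. At 4 DAP the factors were 1.17, 1.14 and 1.20. Ovule libraries, all of 1 age, differed in the sum as well, with 6812 and 6978 in the libraries numbered 1 and 10 and 12794, 19494 and 21586 in those numbered 15, 17 and 19. Core histone sums in ovules were 3062 and 2903 in the libraries numbered 1 and 10 and 4207, 7185 and 9643 in the other 3. By the study's methods those 3 ovule libraries also pooled other maternal plants than the first pair, so that library number and plant source cannot be told apart in ovules. With a term for library numbers 15 to 20 the median log2 fold change was -0.27 for ribosomal protein genes, against -1.35 without it, and -0.82 for core histones, against -1.55 without it, and 0 and 6 of them had an unadjusted p under 0.05. Single genes followed the sums. Migut.D00469 was at 506, 555 and 486 at 4 DAP and 652, 2026, 2016 and 1787 at 2 DAP (edgeR adjusted p = 0.037). Migut.C00185 was at 247, 255 and 251 at 4 DAP and 342, 948, 1071 and 805 at 2 DAP. In Migut.B00220 the levels were 229, 254 and 226 at 4 DAP and 296, 720.3, 803 and 899 at 2 DAP. In each of these genes replicate 1 was the lowest 2 DAP library.

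**Figure D3:**
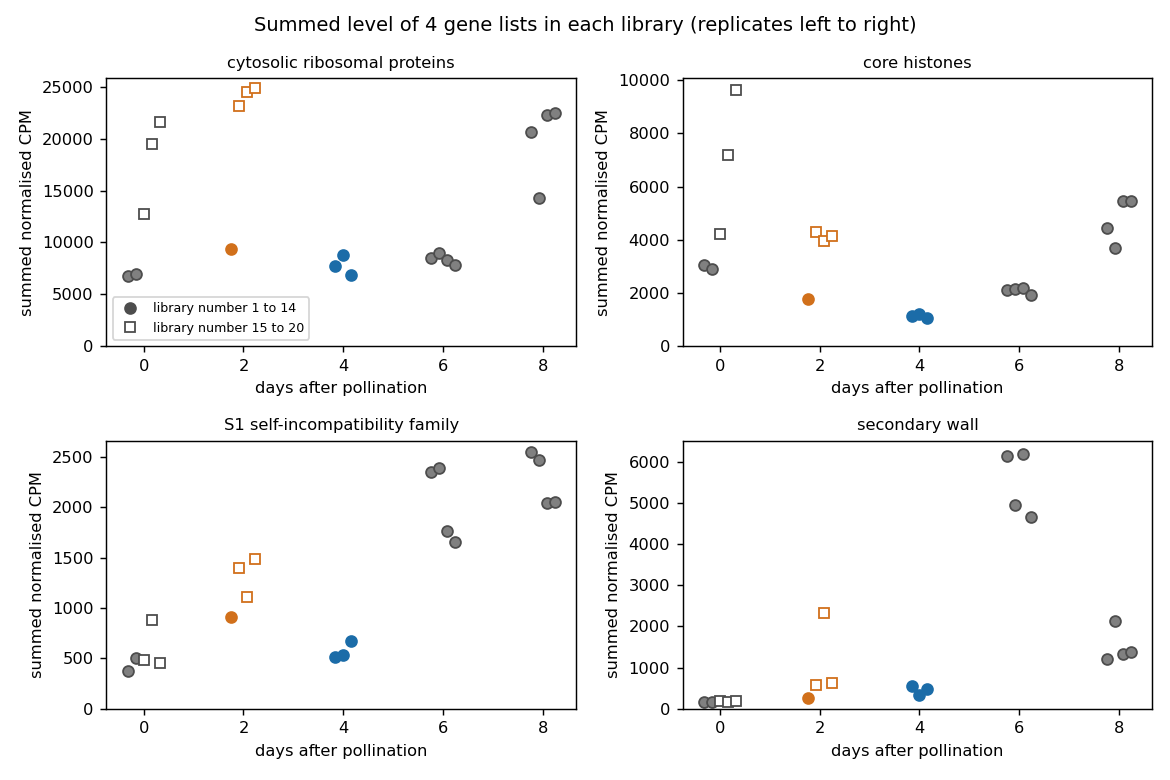
Summed normalised CPM of 4 gene lists in each of the 20 libraries against days after pollination, with filled circles for library numbers 1 to 14 and open squares for 15 to 20. Ribosomal protein sums at 2 DAP are 23215 to 24929 in the open squares and 9365 in the filled circle, beside 6831 to 8808 at 4 DAP, and the secondary wall sum of 2 DAP replicate 3 is 2322, beside 345 to 541 at 4 DAP.

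Type I MADS-box genes, which in Arabidopsis act mainly in the female gametophyte and endosperm, tended to be lower at 4 DAP, although none was called by edgeR and 2 were called by DESeq2. Of 17 members tested, 6 had an unadjusted p under 0.05 in edgeR, all lower at 4 DAP, 5 separated with 4 DAP lower and 1 with 4 DAP higher, and the median log2 fold change was -1.23, or -1.12 with a term for library numbers 15 to 20. The list includes homologues of AGL104, which is usually placed in the related MIKC* group. Among the AGL62 homologues, AGL62 being the Arabidopsis gene that holds back endosperm cellularization, Migut.A00408 was at 0.568, 0.795 and 0.848 at 4 DAP and 2.33, 3.93, 5.2 and 1.8 at 2 DAP. Migut.B00708 was at 2.37, 1.79 and 2.12 at 4 DAP and 4.93, 9.3, 5.98 and 10.1 at 2 DAP, and Migut.D01476 at 3.72, 4.5 and 4.42 at 4 DAP and 5.81, 10.4, 6.76 and 16.6 at 2 DAP. These 3 separated the ages, as did Migut.B00480, at 0.103, 0 and 0.0606 at 4 DAP and 1.66, 1.25, 1.47 and 0.632 at 2 DAP (edgeR adjusted p = 0.0233), which was higher in ovules (5.49). Migut.B00479 overlapped, at 0.31, 0.464 and 0.545 at 4 DAP and 1.14, 4.6, 0.347 and 1.62 at 2 DAP. The homologue of AGL80, which the central cell needs in Arabidopsis, Migut.B01455, was at 16.6, 21.7 and 15.3 at 4 DAP and 5.13, 33, 53.3 and 26.7 at 2 DAP, so that replicate 1 lay below all 4 DAP libraries and the other 3 above them (edgeR adjusted p = 0.523). Its log2 fold change was -0.72, and 1.83 with a term for library numbers 15 to 20. The other AGL80 homologue, Migut.C01325, was at 0.723, 0.994 and 1.76 at 4 DAP and 2.8, 1.34, 2.77 and 0.18 at 2 DAP and overlapped.

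Further type I genes were low at both ages. The homologues of AGL61, a partner of AGL80 in the central cell, had at most 1.89 normalised CPM (Migut.N01504, at 0.206, 0.0662 and 0 at 4 DAP and 0.985, 0.767, 0 and 1.89 at 2 DAP). Migut.A00406, which did not pass the filter on low counts, was at 0.361, 0.0662 and 0.485 at 4 DAP and 0.415, 1.34, 1.13 and 0.0902 at 2 DAP. Migut.B00481, which did not pass it either, was at 0, 0 and 0 at 4 DAP and 0.519, 0.479, 0 and 0.812 at 2 DAP. Migut.K00930 separated the ages at 1.19, 1.59 and 1.09 at 4 DAP and 2.8, 8.15, 6.93 and 3.52 at 2 DAP (edgeR adjusted p = 0.0633). Migut.B01089, the 1 member that lay higher at 4 DAP, was at 2.63, 2.72 and 3.03 at 4 DAP and 1.92, 1.25, 2.17 and 1.17 at 2 DAP. Migut.B01668 was high in replicates 1 and 4 of 2 DAP and low in the other libraries, at 1.45, 0.795 and 1.51 at 4 DAP and 4.87, 1.15, 1.13 and 4.87 at 2 DAP. The remaining tested members, Migut.H01211, Migut.I00404, Migut.K01032, Migut.L00101, Migut.L01896 and Migut.N01481, overlapped between the ages and were under 6 normalised CPM in all 7 libraries, and Migut.B00482 had a count in 2 DAP replicate 4 alone.

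Among the floral and other MIKC-type MADS-box genes, no member was called lower or lay below every 2 DAP library at 4 DAP. Of 8 members tested, the AP3 homologue was called and 2 separated with 4 DAP higher, the second being an AGL14 homologue, Migut.A00904, at 7.38, 6.89 and 5.39 at 4 DAP and 4.72, 0.767, 3.12 and 2.71 at 2 DAP (edgeR adjusted p = 0.236). The most abundant were the AGL6 homologues, floral regulators that are also expressed in ovules and seeds. Migut.B01667 was at 499, 516 and 485 at 4 DAP and 511, 379, 417 and 613 at 2 DAP. Migut.N01413 was at 51.4, 61.8 and 49.3 at 4 DAP and 65.4, 49.9, 39.2 and 90.5 at 2 DAP. In both, the 4 DAP values lay inside the 2 DAP range. The SOC1 homologue Migut.A00902 overlapped at 15.2, 12.9 and 10.4 at 4 DAP and 13.3, 4.12, 2.34 and 8.75 at 2 DAP. The PI homologue Migut.A00326, the usual partner of AP3, was at or near the limit of detection at both ages, at 0.155, 0.132 and 0.182 at 4 DAP and 0, 0, 0.173 and 0.0902 at 2 DAP, as were Migut.B00527 and Migut.B00557, and 3 SVP homologues had no count in any of the 7 libraries.

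Of 12 tested genes listed as endosperm regulators, 7 of them the type I genes above, 5 separated with 4 DAP lower and 1 with 4 DAP higher, and none was called by edgeR, against 3 by DESeq2. Those 5 were the AGL62 homologues already counted above and the homologue of FIE, so the list is not a separate set of genes. The homologue of FIE, a subunit of the Polycomb complex that represses genes in the endosperm, Migut.M01812, separated the ages at 31.8, 36.4 and 29.9 at 4 DAP and 44.9, 60.8, 62.1 and 81 at 2 DAP (log2 fold change -0.93 ± 0.23, edgeR adjusted p = 0.0345). The homologues of ZHOUPI, a regulator of endosperm breakdown around the embryo, were low. Migut.N01183 was at 1.29, 0.662 and 0.787 at 4 DAP and 0.259, 0.863, 3.47 and 1.17 at 2 DAP, with replicate 3 the highest and replicate 1 the lowest 2 DAP library. Migut.B00361, the 1 member counted as separating with 4 DAP higher, had at most 0.242 at 4 DAP and no count at 2 DAP. Taking 3 counts per 2 DAP library as the limit, the bound on its fold change was 0.58, so no rise can be read from it. Migut.A00696, a dirigent-like gene of the list, was at 16.1, 14.1 and 6.54 at 4 DAP and 1.4, 4.89, 19.4 and 1.53 at 2 DAP, where 2 DAP replicate 3 lay above all 4 DAP libraries and the other 2 DAP libraries lay below them. Migut.E00987, a homologue of ULT1, a regulator of meristem size, had at most 0.182 normalised CPM in any of the 7 libraries.

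The 7 genes that the study had examined for imprinting, expression biased to the allele of one parent, held 1 that separated the ages, and total counts carry no allele information. Migut.H00744, a homologue of the histone methyltransferase ATXR5, separated the ages at 1.5, 1.66 and 1.76 at 4 DAP and 2.64, 3.07, 2.25 and 3.07 at 2 DAP (edgeR adjusted p = 0.37). Migut.E01117, a homologue of the methyl-CpG-binding protein MBD13, was at 13.4, 14.7 and 19.1 at 4 DAP and 15.6, 15.1, 18.6 and 12.7 at 2 DAP, and its log2 fold change was 0.02 ± 0.24. The DnaJ homologue Migut.I00545 and Migut.M00083 were under 2 normalised CPM throughout. Migut.N01317, a beta-galactosidase homologue, was at 16.1, 1.92 and 5.75 at 4 DAP and 2.39, 2.3, 5.55 and 3.97 at 2 DAP, with a wide spread at 4 DAP. Migut.I00995, a ubiquitin-conjugating enzyme homologue, was at 90.3, 85.9 and 90.1 at 4 DAP and 111, 42.8, 40.6 and 39.3 at 2 DAP, so that replicate 1 lay above the 4 DAP libraries and the other 3 well below them.

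Families of wall-modifying and secreted proteins held genes of both directions. Among 29 expansin and XTH genes tested, whose proteins loosen the cell wall, 3 separated upward and 3 downward, with 7 and 2 under total-count CPM, and the median log2 fold change was 0.09. The XTH3 homologue Migut.A00993 was at 83.4, 60.1 and 139.9 at 4 DAP and 37.8, 44.1, 20.7 and 56.8 at 2 DAP (edgeR adjusted p = 0.0438). The beta-expansin homologue Migut.F00505 was at 0.31, 0.0662 and 0.303 at 4 DAP and 2.7, 10.9, 3.64 and 3.34 at 2 DAP (edgeR adjusted p = 0.0196). Neither passed the threshold, nor did Migut.E00829 and Migut.A01019. Of 18 subtilases, secreted proteases, 6 separated downward and 1 upward (3 and 1 with total-count CPM), the median log2 fold change was -0.83, and 4 of the 6 were homologues of SDD1, which limits stomatal density in Arabidopsis. Migut.A00883 was at 0.31, 0.199 and 1.15 at 4 DAP and 13.9, 2.11, 13.9 and 7.85 at 2 DAP, beside an ovule mean of 892. The related Migut.E01314, Migut.E01309 and Migut.E01037 had at most 0.606 at 4 DAP and between 0.632 and 3.32 at 2 DAP. The summed level of the subtilases was 7250.4, 5889.9 and 8232 at 4 DAP, against 2448, 2112, 3648 and 2238 at 2 DAP, and nearly all of it was 1 gene. That gene, the ARA12 homologue Migut.C00500, was picked after its values were seen and was at 7163, 5835 and 8154 at 4 DAP and 2289, 1980.3, 3529 and 2097 at 2 DAP (log2 fold change 1.51 ± 0.35, edgeR adjusted p = 0.0269). Of 34 pectin-modifying genes 3 separated downward and 1 upward, and 2 each with total-count CPM. Of 23 invertase and pectin methylesterase inhibitors 3 separated downward and 1 upward, a balance that total-count CPM turned to 2 and 3. Migut.I00786, pectin lyase-like, was at 1.08, 1.13 and 0.182 at 4 DAP and 21.6, 8.05, 2.51 and 8.84 at 2 DAP, and the acetylesterase homologue Migut.A00493 at 55.1, 40.2 and 40.5 at 4 DAP and 21.9, 12.7, 25.2 and 27.3 at 2 DAP. The inhibitor Migut.C00973 was at 1.34, 1.52 and 2.48 at 4 DAP and 3.11, 21.7, 17 and 3.7 at 2 DAP. The inhibitor Migut.M00123 was at 19, 27.7 and 33.3 at 4 DAP and 7.16, 6.52, 3.12 and 8.48 at 2 DAP. Migut.M00123 had no count in ovules and a mean of 0.672 at 6 DAP, so that 4 DAP was its highest age.

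Lipid transfer, defence and stress families were read one by one, and for several of them the counts moved with the scaling. Of 35 tested genes of the lipid transfer and 2S albumin family, 1 was called, LTP4 above, and 5 separated downward and 3 upward, with a median log2 fold change of -1.17, or -0.23 with a term for library numbers 15 to 20. With that term 7 of its genes were lower and 4 higher at an unadjusted p under 0.05 in edgeR, against 15 lower and 1 higher without it. The separated shares, 14.3% downward and 8.57% upward, were close to those of all genes (9.26% and 9.04%). Of 19 class III peroxidases, 3 separated downward and none upward (1 each with total-count CPM), among them Migut.G00224 and Migut.H02509. Migut.G00224, a homologue of RCI3, was at 0.465, 0.397 and 0 at 4 DAP and 16.1, 8.63, 2.6 and 17.5 at 2 DAP (edgeR adjusted p = 0.0311). Migut.H02509 was at 0.258, 0.0662 and 0.182 at 4 DAP and 1.71, 6.71, 0.347 and 5.5 at 2 DAP (edgeR adjusted p = 0.0298). Of 9 WRKY and ERF regulators of defence tested, 4 separated with 4 DAP lower, and 1 did with total-count CPM. The ERF9 homologue Migut.M00159 was at 39, 46.6 and 30.9 at 4 DAP and 149, 107, 118 and 89.1 at 2 DAP (log2 fold change -1.57 ± 0.31, edgeR adjusted p = 0.0135). The WRKY22 homologue Migut.B01797 was at 2.63, 3.44 and 2.00 at 4 DAP and 8.3, 9.68, 4.16 and 3.88 at 2 DAP. The WRKY11 homologue Migut.A00430 was at 12.3, 13.2 and 11.7 at 4 DAP and 22.5, 26.4, 25.7 and 17.8 at 2 DAP. In these regulators replicate 1 lay with the other 2 DAP libraries. Of 16 defensin-like genes 3 separated downward, with the gamma-thionin homologue Migut.D00510 at 27.9, 23.9 and 18.7 at 4 DAP and 88.3, 137, 81.6 and 167 at 2 DAP (edgeR adjusted p = 0.0173), and the list median was negative, or 0.91 with a term for library numbers 15 to 20. With total-count CPM 2 defensin-like genes separated each way. Of 14 SAUR genes tested 3 separated downward, with Migut.H01677 at 3.41, 5.96 and 4.6 at 4 DAP and 9.39, 25.8, 67 and 22.4 at 2 DAP. In Migut.M01538 levels were 2.58, 1.79 and 2.18 at 4 DAP and 3.37, 10.7, 8.76 and 11.8 at 2 DAP, and the list median was -0.49, or 0.36 with that term. Of 12 heat shock genes tested 3 separated downward and 1 with total-count CPM, the HSP20-like Migut.C00358 at 9.24, 8.08 and 8.84 at 4 DAP and 11.7, 24.7, 22.1 and 24.5 at 2 DAP among the 3.

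Lists that the study itself had chosen on these samples are not independent evidence of a direction. Of 191 genes of its cluster that peaks at 2 DAP, 2 were called and 56 separated, all with 4 DAP lower, and 150 had an unadjusted p under 0.05. Their summed level was 20702, 24516 and 19645 in the 4 DAP libraries, against 18671, 53199, 65227 and 56395 in the 2 DAP libraries, so that in replicate 1 the sum was below all 4 DAP values. Of 476 seed-exclusive genes tested, 33 separated upward and 36 downward (56 and 29 with total-count CPM, which turns the balance), with 1 called higher and 2 called lower. Migut.O00213, a homologue of the protease inhibitor CYS1, had no count at 2 DAP and 0.981, 1.13 and 1.94 normalised CPM at 4 DAP, so that it was at least 5.54-fold higher at 4 DAP, taking 3 counts per 2 DAP library as the limit (edgeR adjusted p = 0.0307). Conversely Migut.H01436, a predicted transcription factor, had no count at 4 DAP and 0.0519, 0.0959, 4.77 and 0.361 at 2 DAP. Replicate 3 was well above the others there, and the 6 DAP mean was 37.4. Of 71 ovule-specific genes tested, 10 separated with 4 DAP lower and 1 with 4 DAP higher, and the MATE transporter homologue Migut.J00053 was at 0.31, 0 and 0.182 at 4 DAP and 0.985, 0.767, 0.954 and 1.8 at 2 DAP. Of 143 genes with a bias to the M. guttatus allele, 15 separated upward and 13 downward (22 and 7 with total-count CPM), and Migut.J01014, a cell wall invertase homologue, was at 0.877, 1.19 and 1.7 at 4 DAP and 0.311, 0, 0 and 0 at 2 DAP.

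Migut.A01095, Migut.G00224 and Migut.N00479 were chosen on these samples as specific to 2 DAP, so their direction is not independent evidence. All 3 separated the ages with 4 DAP lower, and none passed the threshold. Migut.A01095, a homologue of the ribonuclease H-like superfamily, was at 0.31, 0.199 and 0.0606 at 4 DAP and 3.73, 2.4, 1.13 and 6.32 at 2 DAP (edgeR adjusted p = 0.0869). Migut.N00479, of the S1 family, was at 1.24, 1.59 and 1.82 at 4 DAP and 23.3, 17.1, 2.86 and 17.2 at 2 DAP (log2 fold change -3.28 ± 0.79, edgeR adjusted p = 0.0302). In all 3, Migut.G00224 included, replicate 3 was the lowest 2 DAP library, and replicate 1 was above the median of the group. Genes of the 2 DAP cluster with a like pattern included Migut.J01426, a homologue of a Barwin-related endoglucanase, at 0.103, 0.199 and 0.182 at 4 DAP and 5.65, 7.09, 2.17 and 12.3 at 2 DAP. Migut.H01452, a homologue of TBL37 of the wall acetylation family, was at 0.465, 0.265 and 0.606 at 4 DAP and 4.93, 3.45, 1.99 and 5.68 at 2 DAP.

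Spread was wider within 2 DAP than within 4 DAP, the age with the narrowest spread, and wider still in ovules. The SD of log2 normalised CPM (with a prior count of 0.5) was above 1 in 4175 genes at 2 DAP (20.6%), against 793 at 4 DAP (3.92%). Its median over genes was 0.597 at 2 DAP and 0.192 at 4 DAP. In ovules 5019 genes (24.8%) had an SD above 1, with a median of 0.641. At 6 DAP there were 1195 (5.9%, median 0.243) and at 8 DAP 2690 (13.3%, median 0.351). Among genes averaging at least 3 in log2 CPM at 2 DAP, 773 had an SD above 1. Without replicate 1 the number was 3165 and without replicate 3 it was 3700, against 4948 without replicate 2 and 4788 without replicate 4. A library was taken to stand apart in a gene where it lay at least 4-fold above the highest, or below the lowest, of the other libraries of its age. Replicate 3 did so upward in 350 genes (1.73%) and downward in 481 (2.38%), and replicate 1 upward in 206 (1.02%) and downward in 384 (1.9%). For replicates 2 and 4 the numbers were 32 (0.158%) and 28 (0.138%) upward and 227 (1.12%) and 172 (0.85%) downward. Among 4 DAP libraries, which were compared with 2 others each, replicate 1 stood apart upward in 149 genes (0.736%) and downward in 30 (0.148%), replicate 2 in 16 (0.079%) and 83 (0.41%), and replicate 3 in 40 (0.198%) and 82 (0.405%). With total-count CPM 2 DAP replicate 1 stood apart upward in 866 genes and downward in 191, and 2 DAP replicate 3 in 258 and 574.

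**Figure D4:**
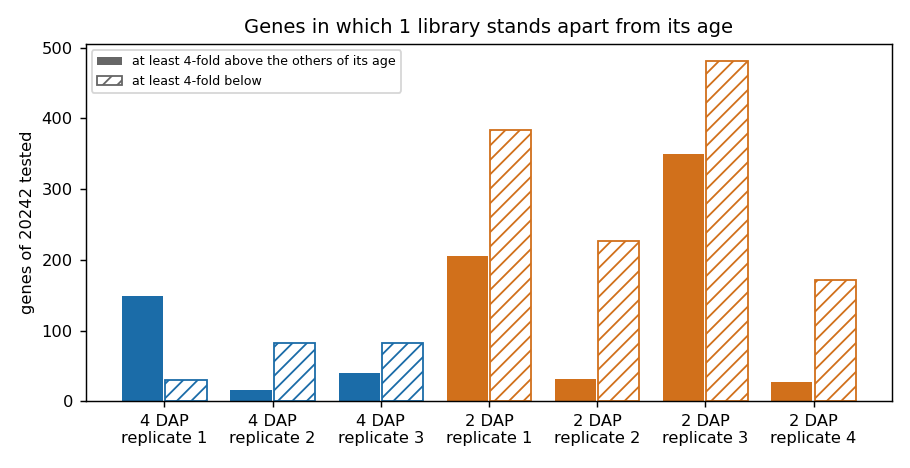
Number of genes, of 20242 tested, in which 1 library lies at least 4-fold above (solid) or below (hatched) all other libraries of its age. At 2 DAP replicate 3 (350 above, 481 below) and replicate 1 (206 above, 384 below) stand apart most often, while no 4 DAP library exceeds 149.

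In 2 DAP replicate 3 the sum and the median of the secondary wall genes lay between the levels of 4 and 6 DAP seeds. Secondary walls, of cellulose, xylan and lignin, are laid down inside the primary wall once a cell has stopped expanding, in seeds chiefly in the coat. Of 28 tested genes of the secondary wall list, replicate 3 was highest among 2 DAP libraries in 24 and stood apart upward in 15, and replicate 1 was lowest in 21 and stood apart downward in 11. Over all 20242 genes tested, replicate 3 was highest in 5829 and stood apart upward in 350 (1.73%). Replicate 1 was lowest in 7107 of them and stood apart downward in 384 (1.9%). The summed level of the list was 541, 345 and 485 in the 4 DAP libraries, against 259, 573, 2322 and 616 in the 2 DAP libraries, beside 4661 to 6198 at 6 DAP. The median gene of the list was at 7.48, 2.62 and 4.3 at 4 DAP and 1.01, 5.37, 49 and 5.05 at 2 DAP, beside 71.8 to 99.6 at 6 DAP. Single members could lie outside that order. The KNAT7 homologue Migut.A00907 was at 259.5 in replicate 3, above its 4 DAP values and its 6 DAP mean of 111. Of the 350 genes in which replicate 3 stood apart upward, 247 (70.6%) were at least 4-fold higher at 6 DAP than at 4 DAP, against 6.47% of all genes tested. For replicates 1, 2 and 4 that share was 9.22% of 206 genes, 37.5% of 32 and 35.7% of 28. A gene above the filter on low counts in only 1 library of 2 DAP must pass it through other ages. The filter therefore favours such shares, and how much of them it accounts for was not tested.

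Single genes show how steep the differences among 2 DAP libraries were. Migut.N03181, a class III peroxidase homologue, was at 33.2, 30.9 and 16.5 at 4 DAP and 0.311, 99.8, 1749 and 152 at 2 DAP, and averaged 2805 at 6 DAP. Migut.L00176, a DUF579 protein of the family that modifies xylan, was at 5.99, 3.58 and 2.79 at 4 DAP and 0.104, 21.8, 436 and 23.9 at 2 DAP, with 431 at 6 DAP. In replicate 3 these genes were above all 4 DAP libraries, and in replicate 1 they were below them. The homologues of the 3 cellulose synthase subunits of the secondary wall were chosen after their values were seen. CESA4 (Migut.D00465) was at 25.8, 5.03 and 8.97 at 4 DAP and 1.14, 22.8, 262 and 15 at 2 DAP, with a 6 DAP mean of 405. CESA7 (Migut.J01374) was at 8.21, 1.26 and 2.91 at 4 DAP and 0.622, 10.8, 82.6 and 3.61 at 2 DAP, with 266 at 6 DAP. In all 3 genes replicate 1 was the lowest 2 DAP library and replicate 3 the highest. CESA8 (Migut.M01014) was at 14, 2.85 and 4.91 at 4 DAP and 0.726, 18.8, 217 and 15.2 at 2 DAP, with 323 at 6 DAP. The laccase LAC17 homologue Migut.J00316, of an enzyme family that polymerises lignin, was likewise chosen afterwards and was at 6.76, 2.58 and 4.3 at 4 DAP and 0.363, 17.2, 174 and 10.9 at 2 DAP, with 1002 at 6 DAP. Replicate 3 was likewise highest in Migut.D00088, at 4.9, 3.84 and 3.57 at 4 DAP and 0.311, 13.2, 274 and 18.6 at 2 DAP, and in the DUF1218 gene Migut.M00860, at 8.00, 4.24 and 2.6 at 4 DAP and 0.726, 6.33, 210.0 and 15.1 at 2 DAP. It was also highest in Migut.L00187, a homologue of KCS2, which elongates fatty acids for wax and suberin, at 4.54, 3.44 and 3.03 at 4 DAP and 1.4, 8.44, 101 and 6.86 at 2 DAP. The GDSL lipase homologue Migut.H00518 was at 4.75, 3.11 and 4.12 at 4 DAP and 0.415, 22.7, 230.4 and 21.7 at 2 DAP. Libraries of 6 DAP ran from 85.7 to 144 for Migut.M00860 and from 82.3 to 97.6 for Migut.L00187, below replicate 3 in both. They ran from 255 to 371 for Migut.D00088, a range that holds replicate 3, and from 586 to 814 for Migut.H00518, above it. The log2 fold changes of Migut.N03181, Migut.L00176, CESA7, CESA8 and LAC17, all negative, turned positive with a term for library numbers 15 to 20, and that of CESA4 was 0.024 without 2 DAP replicate 3.

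In the fit with all libraries the secondary wall list had a median log2 fold change of -1.49 at 4 DAP, with 13 of 28 genes at an unadjusted p under 0.05 in edgeR, all lower, and none called. DESeq2 called 2 of them lower, beside 700 of all 20242 genes. Without 2 DAP replicate 3 the median was 0.021, with 2 genes higher and 2 lower at that p, and with a term for library numbers 15 to 20 it was 0.42, with 1 gene higher and 0 lower. Only 3 of the 28 separated the ages. Migut.A00907, a homologue of the repressor KNAT7, was lower at 4 DAP, at 122, 124 and 131 at 4 DAP and 150.0, 267, 259.5 and 353 at 2 DAP (log2 fold change -1.04 ± 0.27, edgeR adjusted p = 0.0371). Migut.M01101, a homologue of the NAC factor SND2, was higher at 4 DAP, at 9.03, 6.56 and 11.3 at 4 DAP and 5.55, 5.08, 4.94 and 2.26 at 2 DAP (edgeR adjusted p = 0.305). So was Migut.A00222, a homologue of the xylan synthesis gene IRX9-L, at 6.45, 6.49 and 5.51 at 4 DAP and 5.08, 0.959, 0.78 and 3.7 at 2 DAP (edgeR adjusted p = 0.265).

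**Figure D5:**
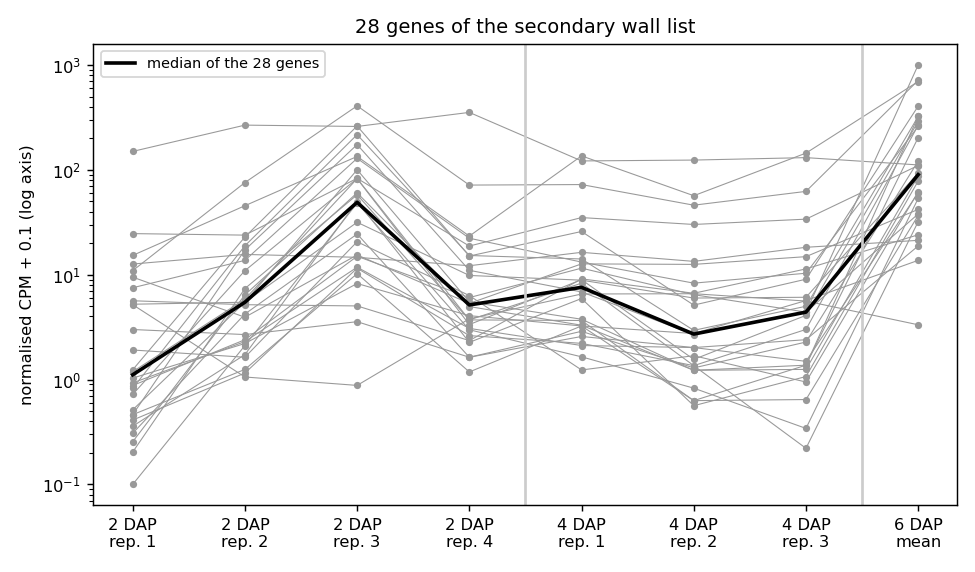
Normalised CPM plus 0.1 (log axis) of the 28 tested secondary wall genes in each 2 DAP and 4 DAP library and as the mean of the 4 libraries of 6 DAP, 1 grey line per gene, with the median in black. The median gene is at 49.0 in 2 DAP replicate 3 and 1.01 in replicate 1, beside 2.62 to 7.48 in the 4 DAP libraries.

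Replicate 3 was also low in genes that marked the other 2 DAP libraries. Over all genes tested it stood apart downward in 2.38%. In the S1 family it did so in 13 of 71 genes, against 2, 1 and 1 for replicates 1, 2 and 4. Of these Migut.F01925 was at 11.4, 12.3 and 9.45 at 4 DAP and 43.7, 28.6, 3.12 and 48.7 at 2 DAP, and at 6 DAP it averaged 2.01. Migut.N01161, a basic secretory protein homologue, was at 11.8, 8.74 and 3.15 at 4 DAP and 46.9, 64.3, 1.56 and 30.0 at 2 DAP. Migut.A00705, a family 5 cellulase homologue, was at 3.66, 3.31 and 2.18 at 4 DAP and 11.6, 21.7, 1.21 and 17.7 at 2 DAP, and the pectin acetylesterase homologue Migut.A00491 at 20.4, 14.8 and 23.4 at 4 DAP and 114, 23.7, 3.73 and 46.7 at 2 DAP. In these 4 genes replicate 3 was below all 4 DAP libraries and the other 2 DAP libraries were above them, and at 6 DAP the means were 0.904 for Migut.N01161, 0.206 for Migut.A00705 and 2.31 for Migut.A00491.

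Replicate 1 often lay at the 4 DAP level. Among 6050 genes whose mean log2 CPM in 2 DAP replicates 2 to 4 differed from the 4 DAP mean by at least 1, replicate 1 was nearer to 4 DAP in 4866 (80.4%). Choosing genes by the other libraries favours this outcome for any library, and the same count with replicate 2, 3 or 4 set aside in its place gave 918 of 3528 (26%), 1176 of 3345 (35.2%) and 846 of 3321 (25.5%). These shares are a description, with no test. The genes it held highest above the other 2 DAP libraries have no homologue names. Migut.I01016 was at 46.1, 55.2 and 61 at 4 DAP and 69, 9.68, 8.32 and 7.4 at 2 DAP. Migut.J00109 was at 55.3, 57.6 and 46 at 4 DAP and 54.4, 10.8, 8.58 and 11 at 2 DAP, and Migut.M01796 at 116, 121 and 104 at 4 DAP and 137, 25.6, 28.2 and 25.1 at 2 DAP. In these 3 genes replicate 1 lay within the 4 DAP range or just above it. In Migut.H00178, at 18, 11.5 and 10.5 at 4 DAP and 35.8, 3.64, 7.28 and 6.95 at 2 DAP, it was above every 4 DAP library. Besides the wall genes above, it was low in Migut.D00824, at 12.4, 17.8 and 9.27 at 4 DAP and 0.57, 36.3, 67.3 and 39.6 at 2 DAP. Of the 384 genes in which it stood apart downward, 44.3% were at least 4-fold lower in ovules than at 4 DAP and 43.5% at least 4-fold higher at 6 DAP than at 4 DAP, against 9.65% and 6.47% of all genes tested.

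Replicates 2 and 4 stood apart in fewer genes than replicates 1 and 3, both upward and downward. Replicate 2 was highest in Migut.G00539, at 26.1, 44.4 and 40.3 at 4 DAP and 15.6, 103, 15 and 10.3 at 2 DAP, in Migut.N01389, at 23.8, 32.1 and 25 at 4 DAP and 20.3, 86.6, 16.3 and 22.4 at 2 DAP, and in Migut.H02009. It was also highest in Migut.H01559, a homologue of the cytochrome P450 gene CYP77B1, at 69.1, 43.1 and 94.6 at 4 DAP and 91.5, 237, 67.9 and 76.8 at 2 DAP. Among the genes it held lowest, Migut.N02327 was at 198, 210.0 and 167 at 4 DAP and 146, 62.2, 167 and 208 at 2 DAP and Migut.F00814 at 17.3, 21.5 and 17.1 at 4 DAP and 18.8, 2.4, 7.98 and 14.3 at 2 DAP, and Migut.N01911 and Migut.D01790 were also among them. Replicate 4 was highest in Migut.G00115, a homologue of the abscisic acid receptor PYL11, at 48.2, 46.6 and 30.0 at 4 DAP and 16.1, 78.1, 79.7 and 278 at 2 DAP, and in Migut.M00240, Migut.L01568 and Migut.G01141. The last of these had 5.11, 3.58 and 3.39 normalised CPM in the 4 DAP libraries, against 10.3, 7.96, 7.8 and 29.8 in the 2 DAP libraries, so that the ages also separated in it. Replicate 4 was lowest in Migut.F00666, at 93.1, 65.9 and 112 at 4 DAP and 75.3, 78.9, 33.6 and 7.13 at 2 DAP, in Migut.J00469, at 69.7, 41.9 and 105 at 4 DAP and 84, 78.1, 56 and 13.1 at 2 DAP, and in Migut.L01214 and Migut.G00750, in which the other 2 DAP libraries overlapped the 4 DAP range.

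Markers of other tissues and ages were checked in the same libraries. Of 5 pollen and sperm genes tested none separated, and their summed level was 32.7, 20.8 and 29.7 at 4 DAP and 22.9, 25.4, 23.8 and 31 at 2 DAP. The carpel marker homologous to CRC, Migut.L01172, had at most 0.0606 normalised CPM in any of the 7 libraries, which is under the 3-count limit, and 8.32 on average in ovules. Flavonoid genes, which colour the seed coat, summed to 476, 374 and 467 at 4 DAP and 241, 276, 458 and 322 at 2 DAP, with 0 of 9 members separating and none at an unadjusted p under 0.05 in edgeR. Photosynthesis genes, a sign of green tissue, summed to 570.0, 602 and 502 at 4 DAP and 269, 677, 996 and 509.7 at 2 DAP. Replicate 1 of 2 DAP was the lowest and replicate 3 the highest of the 7 libraries in the photosynthesis sum. Most of that sum was 1 gene, the LHCB6 homologue Migut.B00625, at 499, 527 and 435 at 4 DAP and 212, 571, 888 and 401 at 2 DAP. In each direction 1 of the 7 genes separated, LHCA5 (Migut.C00582) higher and PSBP-1 (Migut.M00114) lower at 4 DAP. LHCA5 was lowest in 2 DAP replicate 3, at 3.03. Seed maturation genes summed to 115, 133 and 127 at 4 DAP and 95.6, 181, 188 and 212 at 2 DAP, beside 194 to 318 at 6 DAP and 1619 to 21165 at 8 DAP. Most of the sums at 2 and 4 DAP came from Migut.D00093, a late embryogenesis abundant homologue, and Migut.K00480, an ATS3 homologue. Migut.D00093 was at 85.9, 97.3 and 102 at 4 DAP and 53.8, 89.8, 124 and 133 at 2 DAP. The oleosin homologue Migut.A00172 was at 0.103, 0.0662 and 0 at 4 DAP and 0.415, 1.05, 0.867 and 0.541 at 2 DAP. The part that differing tissue shares or seed stages may have in the spread at 2 DAP was not tested.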

How the data were processed

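The 20 deposited tables hold raw read counts per annotated gene, made by the authors from paired reads of strand-specific libraries. Reads were trimmed with Trimmomatic, mapped with STAR to a pseudo-reference of each parental line, merged by best alignment with lapels and suspenders, kept where uniquely mapped and properly paired, and counted with featureCounts. Its strand setting is not given in the sources used here. Groups came from the sample labels. Counts were tested as deposited in edgeR 4.0.16 (R 4.3.3) with TMM scaling, over all 20 libraries and 20242 genes (those whose CPM exceeded 1 in 3 or more libraries), by the quasi-likelihood test of 4 DAP over 2 DAP at a false discovery rate of 0.01. This test replaces the likelihood ratio test of the study. Log2 values have a prior count of 0.5, and the script was tested on simulated data.

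Members and gene lists were chosen with earlier results of these data known. The genes named were, in each direction, the 10 largest changes among called genes and the 10 widest gaps between the ages among genes averaging at least 3 in log2 CPM, the 4 genes each 2 DAP library held highest and lowest, all members of the MADS-box, endosperm and imprinting lists, up to 4 called or separated members of each other list (1 ribosomal protein gene is not reported here), and the 3 genes given as specific to 2 DAP. Fewer than 10 genes rose, so all 4 were named. Migut.F01740, Migut.C00500, the 3 CESA genes, LAC17, CRC, Migut.B00625, Migut.D00093 and Migut.K00480 were added after their values were seen. Depth ran from 12134820 to 16529554 counts in the 7 libraries, and replicates were distinct, with at most 3.29% of genes at equal counts in a pair. Alternatives used DESeq2 1.42.0, limma 3.58.1, other scalings, filters, blocks and omitted libraries. Gene positions and sequences were not used here.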

Additional observations from a re-analysis of the deposited data

Results flagged for a closer look

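In the 4 libraries of 2 DAP, 1 library lay far from the other 3 in some of the genes and sums reported above. The gap to its nearest neighbour, as a share of the whole range on the log2 scale, passed Dixon's criterion. Chance meets that criterion in about 1 in 20 groups. Of 190 genes and sums checked, 23 passed. Migut.I01016, Migut.J00109, Migut.M01796, Migut.D00824 and Migut.M00240 had been named because 1 library of 2 DAP lay apart in them, so for these the criterion restates the choice and the chance rate does not apply. Replicate 1 was the lowest library in the summed ribosomal protein genes (gap 0.927 of the range, at 9365 normalised CPM), core histones (0.908, at 1781), SAUR genes (0.833, at 69.3) and the study's cluster peaking at 2 DAP (0.837, at 18671). It was the highest in the sum over genes tested for imprinting (0.883, at 134.7). Most of that sum is Migut.I00995, a ubiquitin-conjugating enzyme homologue (0.918, at 110.8).

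Replicate 1 was also lowest in the ribosomal protein gene Migut.D00469 (0.889), the histone H2AX homologue Migut.D00242 (0.854), the HSP20-like Migut.C00358 (0.85) and Migut.D00824 (0.869). It was highest in Migut.I01016 (0.88), Migut.J00109 (0.865), Migut.M01796 (0.932), the SDD1 homologue Migut.E01314 (0.869), the ULT1 homologue Migut.E00987 (1) and the cell wall invertase homologue Migut.J01014 (1). In Migut.E00987 and Migut.J01014 the other 3 libraries had no count.

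Replicate 3 was lowest in Migut.O00218 (0.943), the S1 family gene Migut.N00479 (0.851) and the MADS-box genes Migut.H01211 (0.841) and Migut.K01032 (0.84), both without a count there. Replicate 2 was highest in the S1 family gene Migut.H02433 (0.932). Replicate 4 was highest in Migut.M00240 (0.857) and lowest in the SND2 homologue Migut.M01101 (0.871).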

How the results depend on the processing

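Of 40 calls in edgeR, the number was 42 with RLE size factors, 44 with no filter and 57 with the filter applied to the 7 libraries. It was 3 with total-count scaling, 1 with a term for library numbers 15 to 20, 24 with 8 DAP replicates 3 and 4 summed (an alternative chosen after seeing the data), 443 with limma-voom, 588 with the likelihood ratio test, 795 with DESeq2, and 734 at a false discovery rate of 0.05. With the 7 libraries alone it was 0, with 3893 genes at an unadjusted p under 0.05. Of the 14 named by size, 2 were called with total-count scaling, 1 with the term for library number, 0 in the 7-library fit and 9 with the summed libraries. Leaving out 1 library gave 0 to 1249 calls and 0 to 14 of the named. Libraries paired by title numbers or by plants of the study's table had correlated deviations from their age means of -0.18 to -0.01 and -0.16 to -0.01 (3 pairs each). So few pairs cannot decide whether the libraries are paired, and the 1 pair that the file names give (0.26) can decide nothing. A replicate block on titles gave 27 calls and 6 of the named, one on plants 372 calls, and one on file names 0 calls and 0 of the named, with 1752 genes at an unadjusted p under 0.05. With the file-name block and with the term for library number, in that order, the log2 fold change turned positive in Migut.N03181 (5.56 and 6.30), Migut.L00176 (2.58 and 2.84), Migut.M00860 (0.39 and 0.59), Migut.B01455 (1.62 and 1.83), Migut.N01183 (1.60 and 1.69), Migut.M01014 (1.11 and 1.26), Migut.J01374 (1.18 and 1.66) and Migut.J00316 (0.99 and 1.46), none of them called. So did the medians of the secondary wall (0.35 and 0.42) and defensin-like (0.77 and 0.91) lists. The SAUR median was 0.36 with the term for library number, and Migut.D00465 was 0.64 with the block. Leaving out 1 library moved Migut.D00465 between -3.42 and 0.024 and the secondary wall median between -2.18 and 0.021. Genes that did not overlap numbered 3704, 189 with a gap of at least 1 on the log2 scale, and 4287 to 9560 with 1 library left out. Genes with an SD above 1 at 2 DAP numbered 4175, and 773 among those averaging at least 3 in log2 CPM. Genes in which 1 library stood apart numbered 1880, 1115 with a prior count of 2 and 800 at 8-fold. Where no library or term is named as deciding a change, the cause was not tested. Genes under about 1 normalised CPM rest on few counts.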
